A study of Mus musculus with 12 samples.

Results

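The interaction of ovalbumin and airborne particles in the lung of A/J mice is the part of the combined response that the 2 single exposures do not add up to. The contrast was (OVA/PM minus OVA/PBS) minus (PBS/PM minus PBS/PBS) on log2 values, and all 12 of the 12 arrays entered it, 3 in each group. It was tested on 22688 of the 45101 probe sets of the array, those for which all 3 arrays of at least 1 group reached 4.93, the median of all values. That level also serves below as the detection floor.

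All mice were of the inbred strain A/J, 8 to 10 weeks old, and lungs were taken 4 days after the last aspiration. PBS/PBS mice received the buffer alone. OVA/PBS mice were sensitized with ovalbumin, the egg protein used as an allergen in mouse models of asthma, at 0.4 mg/kg into the peritoneum on day 0, and challenged with 30 mg/kg into the trachea on day 14. PBS/PM mice aspirated 50 µl of a 10 mg/ml suspension of ambient particulate matter from Baltimore, and OVA/PM mice had both treatments. Each array stands for the lung of 1 animal, and whole lung mixes airway, alveolar, vascular and blood cells, so that more cells of a type and more RNA per cell cannot be told apart.

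The names OVA and PM of the single-exposure arrays carry a doubt. Rnase2a, an eosinophil granule ribonuclease, had log2 levels of 7.98 to 10.49 in the arrays labelled PBS/PM and 2.99 to 3.29 in those labelled OVA/PBS, against 2.72 to 2.78 in PBS/PBS. Chil4, a chitinase-like protein known from allergic airways, lay at 9.96 to 12.53 in PBS/PM and at 3.17 to 3.48 in OVA/PBS. The interaction is the same number if these names are exchanged (the largest change of any value was 0). Every statement on a single exposure below is therefore a statement on the arrays so labelled.

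Mucous metaplasia, the conversion of airway secretory cells to goblet cells, is driven by the type 2 cytokine IL-13 acting through the transcription factor STAT6. SPDEF is the ETS-family factor that switches on the goblet cell programme, and CLCA1, ITLN1, TFF2, AGR2 and the mucins MUC5AC and MUC5B are among its secreted or packaging products. RETNLA (FIZZ1) is a secreted product that IL-4 and IL-13 induce in macrophages and epithelium. On a log2 scale additivity means that 2 exposures multiply their folds, while on a linear scale it means that their increments sum. A gene was called less than additive where the interaction had the opposite sign to the sum of the single changes, and more than additive where it had the same sign. A combined change that ran against that sum therefore also counts as less than additive.

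The interaction passed an adjusted p of 0.05 for 6 probe sets, or 0.0264% of those tested (limma, Benjamini-Hochberg). Of these 3 were negative (0.0132%) and 3 positive (0.0132%). Clca1, Itln1 and Retnla responded to each exposure and less than additively to both, Spdef was detected only in the OVA/PM arrays and was more than additive, and a Pde4dip probe set and the unnamed probe set 1440111_at had lower values with each exposure and no further drop with both. By shape 5 of the 6 were less than additive and 1, Spdef, more than additive, a probe set that entered the test only through its OVA/PM arrays. At an unadjusted p under 0.05 there were 1412 probe sets, 497 negative and 915 positive, or 6.22% of those tested.

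The windows before the start sites are printed for the called genes on which the goblet cell and type 2 results turn. RefSeq's table for GRCm38.p6 held 4 of the 5 called genes that have a symbol. Each sequence is the 250 bases before the annotated start site, 5′ to 3′ on the gene's strand. Capitals mark TTCNNNNGAA (the spacing of the STAT6 site) and TATAAA, searched on both strands. Retnla lies on the plus strand at chr16:48842359-48842608, Itln1 on the minus strand at chr1:171535295-171535544, and Spdef on the minus strand at chr17:27728952-27729201.
Retnla: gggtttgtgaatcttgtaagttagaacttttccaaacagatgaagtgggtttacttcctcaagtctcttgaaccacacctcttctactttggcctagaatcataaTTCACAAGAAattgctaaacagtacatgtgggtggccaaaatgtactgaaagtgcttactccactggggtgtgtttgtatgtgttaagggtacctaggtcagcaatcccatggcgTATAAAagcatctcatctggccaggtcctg
Itln1: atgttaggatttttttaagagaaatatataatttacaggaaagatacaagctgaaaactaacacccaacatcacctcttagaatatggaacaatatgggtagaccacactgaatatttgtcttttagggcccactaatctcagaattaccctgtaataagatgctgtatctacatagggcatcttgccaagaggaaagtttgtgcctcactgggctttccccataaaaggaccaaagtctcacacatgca
Spdef: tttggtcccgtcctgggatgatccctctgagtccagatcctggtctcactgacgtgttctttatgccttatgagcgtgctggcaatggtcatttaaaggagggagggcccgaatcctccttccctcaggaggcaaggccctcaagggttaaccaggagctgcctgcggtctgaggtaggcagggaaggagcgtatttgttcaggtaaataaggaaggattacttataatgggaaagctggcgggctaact
The Retnla window held TTCNNNNGAA at position -145 and TATAAA at position -30, counted from the start site. Among all 32851 windows of this length in the table, 5.85% held the first motif and 12.4% the second. These letters were in neither the Itln1 nor the Spdef window.

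Clca1, a metalloprotease-like protein that goblet cells secrete with mucus, had the largest called interaction. Its log2 levels were 2.39, 2.40 and 2.38 in PBS/PBS, 8.10, 8.31 and 8.69 in OVA/PBS, 14.03, 13.95 and 14.88 in PBS/PM, and 14.68, 14.49 and 14.71 in OVA/PM. The control arrays lay under the floor, OVA/PBS stood between, and the PBS/PM and OVA/PM arrays overlapped. Clca1 rose with each exposure alone (adjusted p = 8.37e-07 with OVA and 1.41e-09 with PM). Since the 3 control arrays did not reach the floor, the folds are bounds against it, at least 11.0 in OVA/PBS, at least 686 in PBS/PM and at least 832 in OVA/PM. OVA/PM lay 0.34 above PBS/PM (adjusted p = 0.329). The interaction was -5.64 (SE 0.32, 95% interval -6.35 to -4.93, adjusted p = 0.000102).

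Itln1, intelectin-1, a lectin of mucus that binds microbial sugars, had a graded pattern. The log2 levels were 4.61, 4.67 and 4.75 in PBS/PBS, 9.93, 9.54 and 9.94 in OVA/PBS, 11.72, 12.11 and 12.85 in PBS/PM, and 13.42, 12.97 and 12.90 in OVA/PM. No array of one group overlapped another group, although the highest PBS/PM array lay just under the lowest OVA/PM array. Itln1 rose with each exposure alone, at least 29.6-fold with OVA and at least 166-fold with PM against the floor, which the control arrays did not reach, and OVA/PM exceeded PBS/PM by 0.87 (adjusted p = 0.0432). The interaction was -4.26 (SE 0.36, adjusted p = 0.00164).

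Retnla was already high in control lungs, with 10.22, 10.44 and 10.26 in PBS/PBS. It had 14.34, 13.67 and 14.08 in OVA/PBS, 14.26, 14.21 and 14.48 in PBS/PM, and 14.69, 14.70 and 14.75 in OVA/PM. Each exposure alone brought the level to within 1 log2 unit of the combined level, and the 3 OVA/PM arrays were the highest of the 12. Retnla rose 13.4-fold in OVA/PBS, 16.2-fold in PBS/PM and 21.2-fold in OVA/PM as ratios of mean linear intensities. The interaction was -3.33 (SE 0.21, adjusted p = 0.00018). OVA/PM did not pass against either single exposure (adjusted p = 0.232 and 0.1).

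Spdef showed the opposite shape. Its log2 levels were 2.42, 2.35 and 2.41 in PBS/PBS, 2.51, 2.55 and 2.55 in OVA/PBS, 2.69, 2.69 and 2.57 in PBS/PM, and 5.28, 6.32 and 5.96 in OVA/PM. All 9 arrays of the other groups lay under the floor and the 3 OVA/PM arrays above it. The interaction was 3.06 (SE 0.28, adjusted p = 0.00331). Spdef passed the filter only through OVA/PM, the group where it is high, so that selection alone favours a positive value. Of the 23 probe sets tested with 3 groups under the floor, 39.1% had an interaction over 1 in size, against 2.27% of those with no group under it. The mean linear intensity in OVA/PM was 1.98 times the floor, so that its fold over PBS/PBS is at least that. With every value raised to the floor the interaction was 0.92. So raised, it no longer passed (adjusted p = 0.57). What separates the groups is detection, and the size of the difference below the floor is not known.

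The Pde4dip probe set 1456413_at, for a scaffold protein that binds phosphodiesterase 4D at the centrosome, had lower values with each exposure. The levels were 8.03, 7.89 and 8.03 in PBS/PBS, 7.05, 7.20 and 7.09 in OVA/PBS, 7.52, 7.58 and 7.67 in PBS/PM, and 7.73, 7.57 and 7.68 in OVA/PM. The OVA/PM arrays lay between control and OVA/PBS and overlapped PBS/PM. It fell by 0.87 with OVA (adjusted p = 0.000315), and the difference with PM was -0.39 (adjusted p = 0.17). Its interaction was 0.94 (SE 0.12, adjusted p = 0.0349). This is not the gene's brightest probe set and was named after its values were seen, and the other 3 probe sets of Pde4dip gave 0.32, -0.74 and 0.64, none of which passed. The probe set 1440111_at, which has no symbol, had 7.51, 7.28 and 7.62 in PBS/PBS, 6.94, 6.68 and 6.76 in OVA/PBS, 6.58, 6.59 and 6.86 in PBS/PM, and 7.26, 7.35 and 7.52 in OVA/PM. It fell with OVA and with PM, by 0.68 and 0.80, and differed from control by -0.09 with both (adjusted p = 0.598). Its interaction was 1.38 (SE 0.17, adjusted p = 0.0398). With each array left out in turn, Pde4dip was called in 2 of 12 fits and 1440111_at in 3 of 12. Clca1, Retnla, Itln1 and Spdef were called in 12 of 12. For Spdef these fits do not test the filter, since it entered each of them through OVA/PM alone. For Clca1, Retnla and Itln1 they do not test the sign, since the additive level lay above the highest value of any array.

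**Figure D1:**
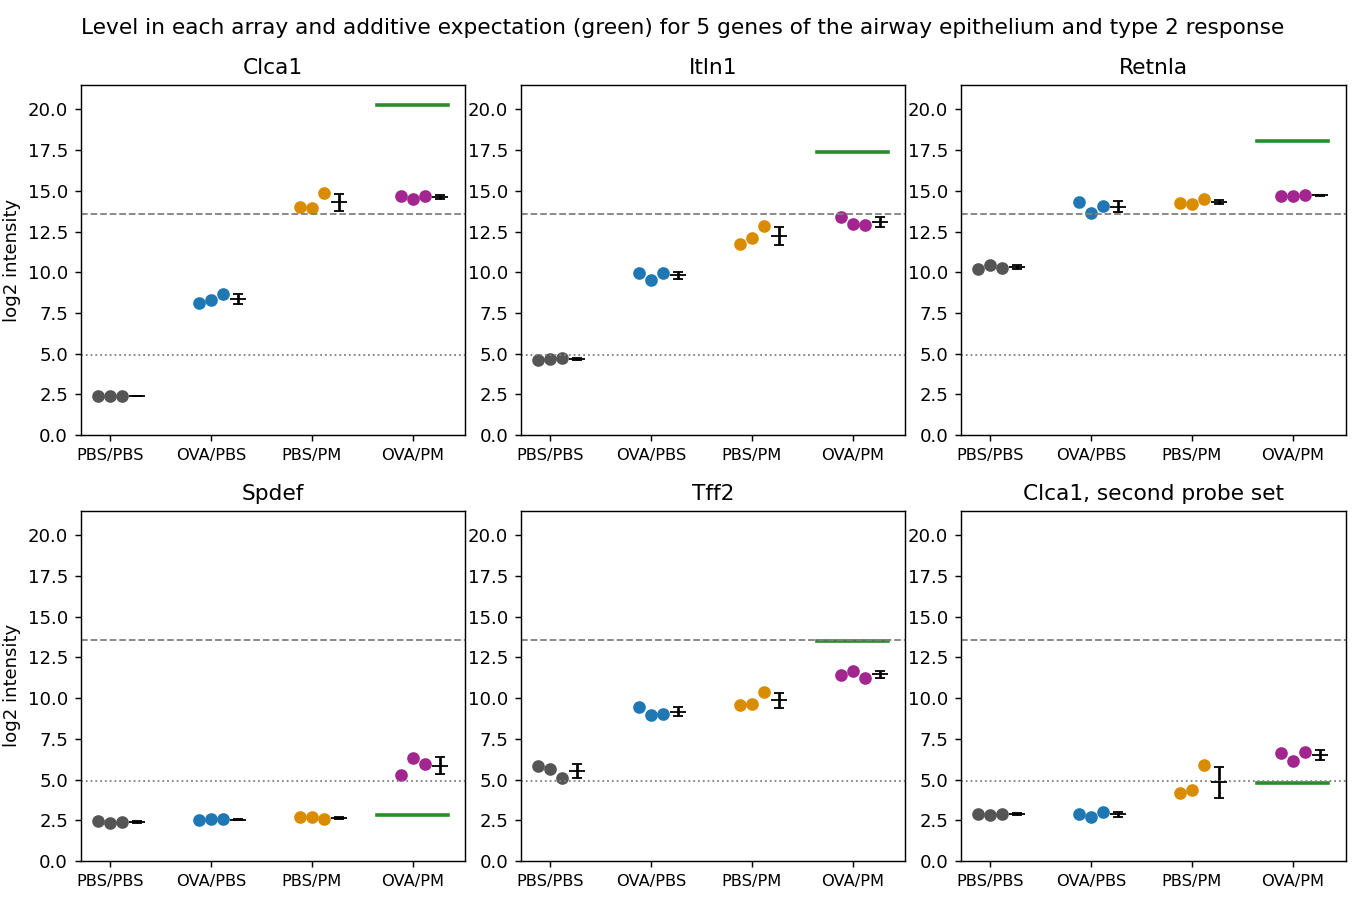
Log2 intensity of each of the 12 arrays (points) by group, with the group mean and SD (black) and the level that additivity on the log2 scale predicts for OVA/PM (green line). Dotted and dashed lines mark the floor at 4.93 and the 99th percentile of all values at 13.55. OVA/PM lies below the green line for Clca1, Itln1, Retnla and Tff2 and above it for Spdef and for the second Clca1 probe set.

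The second probe set of Clca1 on the array had the opposite sign. It had 2.91, 2.83 and 2.90 in PBS/PBS, 2.91, 2.71 and 2.98 in OVA/PBS, 4.18, 4.38 and 5.89 in PBS/PM, and 6.65, 6.14 and 6.67 in OVA/PM. The probe set is dim, its OVA/PBS arrays did not leave the control level, and its OVA/PM arrays were above every PBS/PM array. Its interaction was 1.68 (SE 0.51, adjusted p = 0.611) and did not pass. It passed when PBS/PM replicate 3 was left out. The sign of the Clca1 interaction is thus that of the brighter probe set, and which transcript parts the 2 probe sets read was not tested.

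The naming rule took 12 genes in each direction, called genes first and then by lowest p, and those that did not pass are given as values. Tff2, the trefoil peptide that goblet cells secrete with mucin, had 5.85, 5.65 and 5.07 in PBS/PBS, 9.46, 8.98 and 9.05 in OVA/PBS, 9.58, 9.62 and 10.36 in PBS/PM, and 11.41, 11.68 and 11.26 in OVA/PM. Each exposure alone placed it well above control, and both together higher still with no overlap. Its interaction of -2.04 (SE 0.36) had an adjusted p of 0.226. Scgb3a1, a secretoglobin of airway secretory cells, had group means of 12.73 in PBS/PBS, 14.15 in OVA/PBS, 13.72 in PBS/PM and 13.99 in OVA/PM and an interaction of -1.15 (SE 0.18, adjusted p = 0.13). Bpifb1, a secreted lipid-binding protein of airway epithelium, had 11.42, 13.08, 12.91 and 13.44 in the same order and -1.12 (SE 0.23, adjusted p = 0.318). Both genes were bright in every group, and each single exposure alone brought them near the combined level.

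On the positive side Fxyd4, a regulator of the sodium pump, resembled Spdef, with 3.14, 3.21 and 3.25 in PBS/PBS, 4.31, 3.25 and 3.32 in OVA/PBS, 3.50, 3.45 and 3.27 in PBS/PM, and 7.73, 6.49 and 6.91 in OVA/PM. Only the OVA/PM arrays were above the floor, so that Fxyd4 entered the test through them alone, as did Scin and Arg1. Its interaction was 3.22 (SE 0.45, adjusted p = 0.0783). Scin, the actin-severing protein scinderin, had 2.03 to 2.21 in the 6 arrays of PBS/PBS and OVA/PBS, 3.34, 2.58 and 4.83 in PBS/PM, and 6.92, 6.46 and 6.81 in OVA/PM, with an interaction of 3.06 (SE 0.60, adjusted p = 0.309). Arg1, arginase 1 of alternatively activated macrophages, reached 5.10, 5.60 and 5.14 in OVA/PM and lay under the floor in the other 9 arrays, with an interaction of 3.53 (SE 0.88, adjusted p = 0.507). Raised to the floor, these interactions were 2.12 for Fxyd4, 1.80 for Scin and 0.35 for Arg1. Gpnmb, a glycoprotein of lipid-laden macrophages, had means of 8.43, 12.13, 7.86 and 12.67 and an interaction of 1.11 (SE 0.29, adjusted p = 0.535). It is the one of these 4 genes with no group under the floor.

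**Figure D2:**
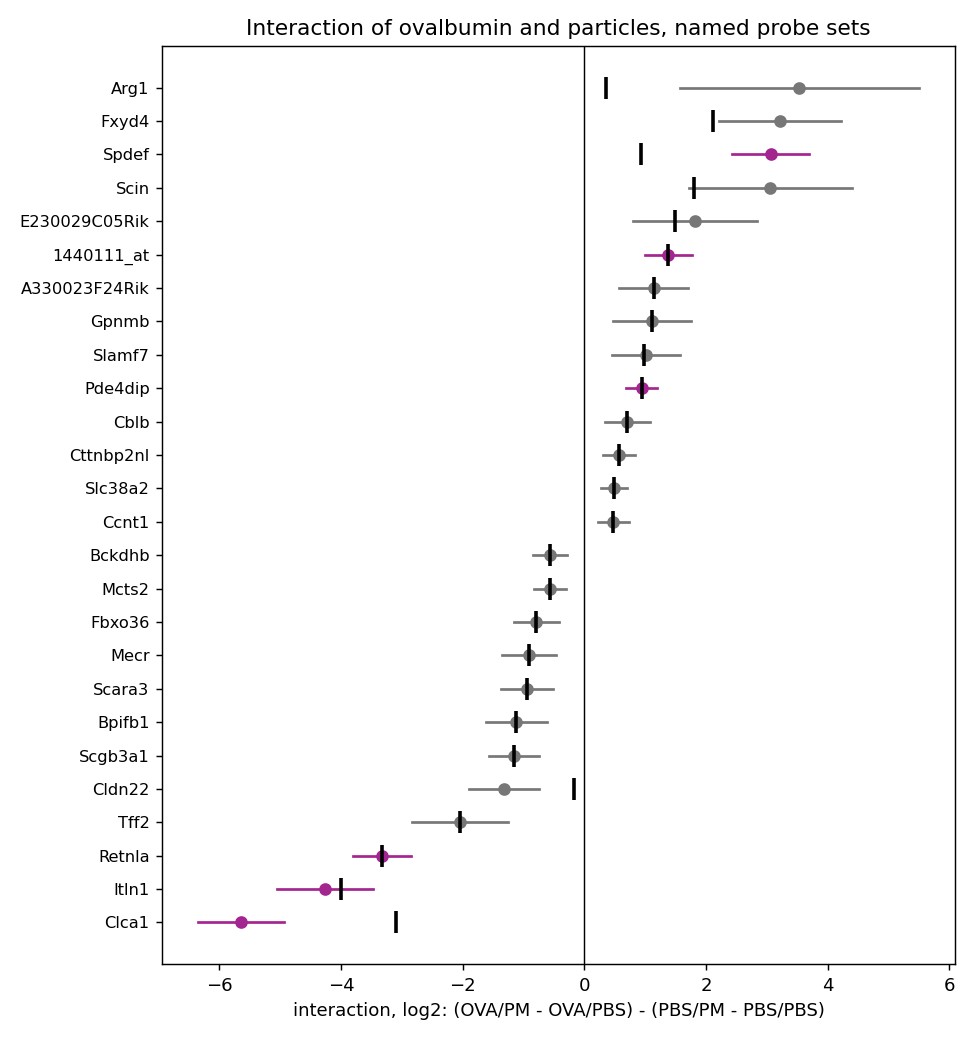
Interaction of the named probe sets on the log2 scale (points) with 95% intervals (lines); purple marks the 6 called, and black ticks give the value with all intensities raised to the floor. The ticks move toward 0 most for Spdef, Arg1 and Clca1 and leave Retnla at -3.33.

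The scale changed the direction for part of the goblet cell genes. On linear intensities the mean level of Clca1 was 335 in OVA/PBS, 20897 in PBS/PM and 25366 in OVA/PM, so that the linear interaction was 4139 (SE 4765, from the replicate SDs). It was 2938 (SE 1597) for Itln1, 1327 (SE 309) for Tff2 and -9320 (SE 2559) for Retnla. The synergistic index, the combined increment over control divided by the sum of the single increments, is 1 for exact linear additivity. It was 1.20 (SE 0.27) for Clca1, 1.498 (SE 0.353) for Itln1, 1.92 (SE 0.30) for Tff2, 0.73 (SE 0.05) for Retnla, 0.76 (SE 0.09) for Bpifb1 and 0.52 (SE 0.07) for Scgb3a1. The same ratio of log2 differences was 0.68 for Clca1, 0.66 for Itln1, 0.74 for Tff2 and 0.57 for Retnla. Retnla, Bpifb1 and Scgb3a1 were therefore below 1 on both scales, while Clca1, Itln1 and Tff2 were below 1 on log2 values and above it on linear ones, by 1 SE or less for Clca1.

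Fitted on linear intensities with limma, 11 probe sets passed, all positive, and 2 of the 6 (Pde4dip and 1440111_at) were among them. Clca1, Itln1, Retnla and Spdef did not pass on that scale (adjusted p = 0.912, 0.784, 0.497 and 0.248). Muc5ac, Scin and Mmp12 passed, with linear interactions of 689 (SE 76.6), 92.1 (SE 11.4) and 5330 (SE 517), adjusted p = 0.0321, 0.0401 and 0.0204. Mmp12, the macrophage elastase, had log2 levels of 6.10, 5.98 and 6.46 in PBS/PBS, 12.94, 12.81 and 12.71 in OVA/PBS, 7.24, 7.70 and 7.95 in PBS/PM, and 13.63, 13.54 and 13.72 in OVA/PM. No group overlapped another, the log2 interaction was -0.64 (SE 0.25, adjusted p = 0.73), and the synergistic index was 1.73 (SE 0.10).

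**Figure D3:**
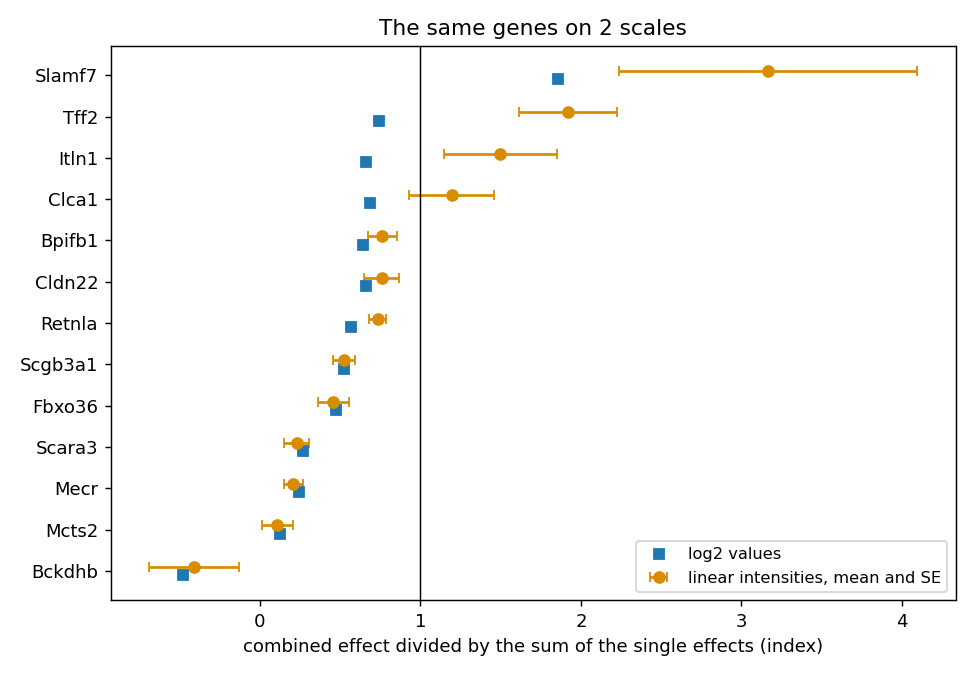
Combined effect divided by the sum of the single effects for the named probe sets in which both single effects were positive and the linear index had an SE under 1. Orange points with SE use linear intensities, blue squares log2 differences, and the vertical line at 1 is additivity. Tff2, Itln1 and Clca1 lie on opposite sides of the line on the 2 scales.

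The top of the scale bore on the same genes. The log2 level that additivity predicts for OVA/PM was 20.26 for Clca1, 18.04 for Retnla and 17.35 for Itln1, and the highest value of any probe set on any array was 16.26. These were the only 3 of the 22688 probe sets tested whose additive level exceeded that maximum. All 3 had a negative interaction, a sign fixed in advance, since an OVA/PM mean cannot exceed the highest value. Clca1 had 2 groups, and Retnla and Scgb3a1 had 3 each, at or above the 99th percentile of all values (13.55). Whether the array signal saturates there was not tested. For Itln1 no group mean reached the 99th percentile, and for Tff2 the additive level of 13.49 lay within the measured range.

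The bottom of the scale bore on both directions. Of the 6 called probe sets 3 had a group mean under the floor, namely Clca1 and Itln1 in PBS/PBS and Spdef in 3 groups. Raised to the floor, the interaction of Clca1 went from -5.64 to -3.10 and that of Itln1 from -4.26 to -4.01. Over all probe sets tested, 427 had at least 1 group under the floor, and their median SE was 0.47 against 0.19 for the others. An interaction of more than 1 in size was found for 599 probe sets (2.64%), 272 negative and 327 positive. Among these, 9 of the 272 and 4 of the 327 had the opposite sign on the linear scale, so the goblet cell genes were in the minority. The median unadjusted 95% interval reached 0.44 to either side. A call after adjustment needed more, and depended on the size relative to the SE. Scgb3a1 did not pass at -1.15 (SE 0.18), while the Pde4dip probe set 1456413_at passed at 0.94 (SE 0.12).

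The single exposures give the background to these counts. In the same fit 25% of probe sets passed for OVA/PBS and 0.167% for PBS/PM against PBS/PBS, 27.8% for OVA/PM against PBS/PBS, 0.119% for OVA/PM against OVA/PBS and 15% for OVA/PM against PBS/PM. These contrasts share arrays with the interaction. With the names OVA and PM exchanged, the 25% and the 0.119% would belong to PM and OVA/PM against PM, and the 0.167% and the 15% to OVA and OVA/PM against OVA.

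Of 15 tested members of a goblet cell and mucus list of 20 genes, 2 passed as negative (Clca1 and Itln1) and 1 as positive (Spdef), and over all 11416 genes tested 3 passed as negative and 1 as positive. The signs were split, 8 negative and 7 positive, with a median of -0.08 beside -0.02 over all 11416 genes. On the linear scale 13 of the 15 were positive, beside 5371 of the 11416 genes. Muc5ac, the gel-forming mucin of goblet cells, had 1.70, 2.34 and 2.12 in PBS/PBS, 6.06, 4.07 and 5.18 in OVA/PBS, 5.51, 5.14 and 7.72 in PBS/PM, and 9.45, 9.75 and 9.82 in OVA/PM. OVA/PM stood above all other arrays, and the log2 interaction of 0.51 (SE 0.90, adjusted p = 0.968) did not pass. The control arrays lay under the floor, and with values raised to it the interaction was 3.10 (SE 0.78, adjusted p = 0.482). Agr2, the protein disulfide isomerase that mucin folding needs, had means of 5.39, 8.85, 7.66 and 10.63 and an interaction of -0.49 (SE 0.56). Fcgbp, a mucus protein that binds IgG, had 6.73, 7.05, 9.71 and 11.03 and an interaction of 1.003 (SE 0.42, adjusted p = 0.77). Muc5b, the mucin of resting airways, had 9.29, 10.67, 11.12 and 11.65 and an interaction of -0.85 (SE 0.38). For these 4 genes OVA/PM had the highest group mean, as it had for Clca1, Itln1, Tff2 and Spdef.

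Of 9 tested genes of a list of type 2 products, only Retnla passed, and the list's median was 0.03. Chil4 was near its PBS/PM level with both exposures, with 9.96 to 12.53 in PBS/PM and 10.98 to 11.30 in OVA/PM, and its interaction was -0.24 (SE 0.68), or 0.0054 with values raised to the floor. Chil3, another chitinase-like protein of macrophages, had means of 11.60, 12.12, 12.92 and 13.94 and an interaction of 0.49 (SE 0.46). The 3 tested eosinophil genes, Ccl11, Siglecf and Rnase2a, had interactions between 0.05 and 0.44, none of which passed. Rnase2a had 9.77, 9.89 and 10.25 in OVA/PM and 7.98 to 10.49 in PBS/PM, so that the combined level fell inside the range of the single exposure.

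Several immune lists had nearly uniform signs, with no member passing in the fit of all 12 arrays. All 10 tested interferon-gamma and CXCR3 ligand genes had negative interactions (median -1.22), as had 16 of 17 type I interferon genes (median -0.77), 17 of 17 antigen presentation genes (median -0.36) and 9 of 9 natural killer and cytotoxic genes (median -0.84). Over all genes tested 55.4% were negative. Most members were also negative among complement (13 of 15), T cell (12 of 14) and acute phase and antimicrobial genes (11 of 13). Several lists outside the immune system, given below, were mostly negative as well. Cxcl9, a chemokine for activated T cells, had 2.31, 3.25 and 3.39 in PBS/PBS, 10.88, 7.78 and 10.68 in OVA/PBS, 4.65, 4.73 and 6.41 in PBS/PM, and 9.27, 10.95 and 10.60 in OVA/PM. Its OVA/PM arrays overlapped OVA/PBS, and the interaction was -1.78 (SE 1.15, adjusted p = 0.883). Its control arrays lay under the floor, and raised to it the interaction was 0.0027. Members of such a list share the same 12 arrays, and 1 OVA/PBS array (replicate 2) had a mean of 9.77 over the interferon-gamma list against 11.75 and 11.42 in the other 2. Without that array 11 probe sets passed, and Usp18 of the type I interferon list was among them. Gzma, a granzyme of cytotoxic cells, had means of 7.19, 7.83, 8.79 and 8.37 and an interaction of -1.06 (SE 0.30, adjusted p = 0.583).

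Neutrophil genes went the other way, with 10 of 13 positive and a median of 1.25, and none passed. S100a9, a calcium-binding protein that fills the neutrophil cytosol, had 11.00, 13.13 and 14.12 in PBS/PBS, 14.03, 9.92 and 11.54 in OVA/PBS, 11.39, 10.17 and 8.89 in PBS/PM, and 10.56, 12.84 and 12.38 in OVA/PM. The spread within groups was as wide as the differences between them, and the interaction was 2.70 (SE 1.59, adjusted p = 0.87). Striated muscle genes, which mark heart or skeletal tissue in the sample, were negative in 24 of 25 with a median of -1.13. Their mean level was 8.13, 10.04 and 9.59 in the OVA/PM arrays and 9.97 to 11.57 in the other 9. Fatty acid and lipid handling genes were negative in 18 of 21 (median -0.51), with list means of 9.47 to 9.55 in OVA/PM and 9.53 to 10.45 elsewhere. In both lists OVA/PBS replicate 1 was the lowest of the other 9, and the part of muscle tissue in the lipid genes was not tested. The lowest interaction of any gene was that of Myh8, a skeletal muscle myosin, at -7.17, and it did not pass.

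The medians of the alveolar and endothelial lists lay near 0. Of the alveolar type 1 genes 12 of 14 were positive, and of the alveolar type 2 genes 15 of 19 were negative. Alveolar type 1 genes had a median of 0.09, endothelial genes -0.06 and alveolar type 2 and surfactant genes -0.08, with median SEs of 0.13, 0.20 and 0.15. The defining genes of lung were thus measured with little spread. None of the 14, 22 and 19 members tested had a called interaction. Over all 11416 genes tested only 3 passed as negative and 1 as positive, so the absence of calls in these lists says little. Smooth muscle genes were negative in 13 of 14 (median -0.25) and multiciliated cell genes in 15 of 18 (median -0.27). Cholesterol synthesis genes were negative in 14 of 17 (median -0.24) and mitosis genes had a median of -0.08.

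**Figure D4:**
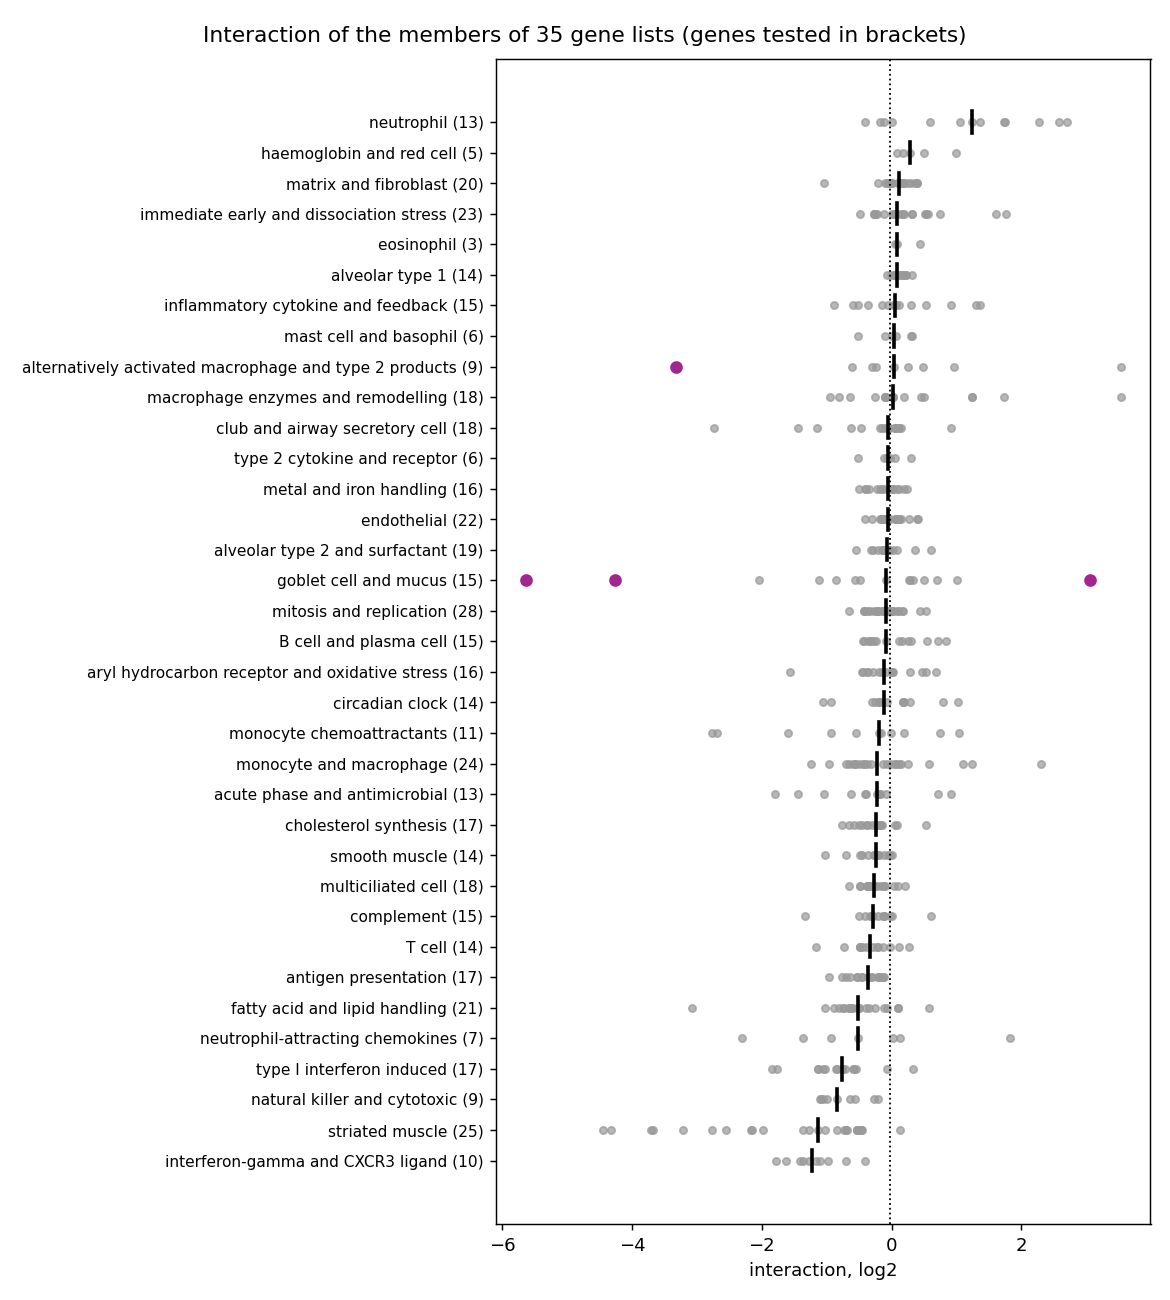
Interaction of each tested member (points) of 35 gene lists on the log2 scale, ordered by list median (black bars), with called genes in purple and the median over all genes as a dotted line. Called members occur in the goblet cell list and in the list of type 2 products, and the interferon-gamma and striated muscle lists have the lowest medians.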

How the data were processed

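RNA of whole lung was hybridised to Affymetrix Mouse Genome 430 2.0 arrays. The authors deposited log2 intensities computed with GCRMA in Bioconductor, which corrects background by probe composition, normalizes the arrays by quantiles and summarizes probes by median polish. The processing notes also name MAS5, and no versions are given in the sources used here. Array medians ran from 4.84 to 5.03, and no pair of arrays was identical. The number of arrays limits the precision.

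The 4 groups were fitted together with limma 3.58.1 in R 4.3.3 (empirical Bayes, Benjamini-Hochberg over all probe sets tested), after leaving out 64 control probe sets. P-values weigh each contrast against the spread between arrays within groups, pooled over the 4 groups and moderated by empirical Bayes. Linear intensities are powers of 2 of the deposited values, and the SE of the index comes from the delta method. Where a whole group lay under the floor, folds were computed against the floor. A gene stands for its probe set with the highest mean, named by the array's annotation (34958 probe sets with 1 symbol, 932 with several, 9211 with none). The rule named, for each sign, called genes and then those with the lowest p up to 12, plus Itln1, Tff2 and Clca1, which the study chose on these samples, and members of gene lists. The genes, lists and rules were chosen with earlier results of these data known. Same-numbered arrays did not deviate together (3 of 18 pairs correlated over 0.1), so numbers were not used as pairs.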

Additional observations from a re-analysis of the deposited data

Results flagged for a closer look

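The effect of PM differed between OVA and PBS mice by the interaction test for the 6 called probe sets. The differences were -5.64 for Clca1, -3.33 for Retnla, -4.26 for Itln1, 3.06 for Spdef, 0.94 for Pde4dip and 1.38 for 1440111_at on the log2 scale. The sign was fixed in advance for Clca1, Retnla and Itln1, and Spdef entered the test only through OVA/PM. These 4 genes did not pass on linear intensities. Pde4dip was called in 2, and 1440111_at in 3, of the 12 fits that left out 1 array.

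The hybridisation controls BioB and BioC, bacterial transcripts added to every sample, stood apart in OVA/PM replicate 3 and take no part in the comparisons. In that array AFFX-BioB-3_at was at 6.11, against 3.62 to 3.79 in the other 11, AFFX-BioB-5_at at 5.50 against 3.65 to 3.77, AFFX-BioC-3_at at 8.30 against 4.62 to 5.24, and AFFX-BioC-5_at at 6.82 against 2.49 to 2.77. Without that array Clca1, Retnla, Itln1 and Spdef were still called. In that fit too Spdef entered through OVA/PM alone, and the sign for Clca1, Retnla and Itln1 was fixed in advance.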

How the results depend on the processing

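The interaction of Clca1, Retnla and Itln1 passed under each log2 alternative and in all 12 fits that left out 1 array, and Spdef passed in those 12 fits. For Clca1, Retnla and Itln1 the additive level lay above the highest value of any array. The negative sign was thereby fixed in advance, and these fits do not test it. Spdef was not tested at the 75th percentile filter and was lost at the floor. The calls numbered 6 in the fit reported, 3 with a filter at the 75th percentile (3 less and 0 more than additive), 4 with further quantile normalization, with a trend and robust variances, and with the replicate number as a block (3 less than additive each), and 11 on linear intensities (8 less and 3 more than additive). With values raised to the floor 9 passed, 7 of them less than additive. The other 2, Scin and F10, had single changes of 0 there and OVA/PM above them, so that the combined change exceeded the sum. A sum of 0 has no sign, so that the rule by its sign does not place them. A replicate block is no test of pairing here, since 2 of 12 arrays correlated best with their own number, and it lost Pde4dip and 1440111_at. Without 1 array, 4 to 11 probe sets passed (11 without OVA/PBS replicate 2, which has the low interferon list), 3 to 10 less and 1 to 4 more than additive.

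On linear intensities the sign reversed for Clca1 (4139), Itln1 (2938), Tff2 (1327), Ccl8 (1717), Mmp12 (5330), Cxcl9 (97.5) and Agr2 (909). Raised to the floor it reversed for Cxcl9 (0.0027) and Chil4 (0.0054). The second Clca1 probe set gave 1.68 and a brighter Pde4dip probe set -0.74. Leaving out 1 array gave -0.16 to 1.10 for Rnase2a, -0.0091 to 1.31 for Muc5ac and -0.85 to 0.44 for Chil4. The cause of these reversals was not tested beyond the change of scale, floor or probe set itself. The floor and the 3 arrays per group limit what can be resolved in dim genes.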
